A study of Mus musculus with 24 samples.

Results

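The genes described here are 34 genes of sugar metabolism and of the response to low oxygen in mouse CD4+ T cells. They cover glucose transport, glycolysis, lactate formation and export, the pentose phosphate pathway, control of pyruvate dehydrogenase and the hypoxia pathway. The members were taken by name from a list of pathway genes that was drawn up with earlier results of these data known, with no measured value in the rule itself, and 31 of the 34 could be read from a probe set that the platform's table assigned to a single gene symbol. Gpi1, Eno1 and G6pdx had no such probe set and were not analysed here. The 31 members are part of 18193 genes measured the same way.

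CD4+ T cells from 2D2 TCR transgenic mice (C57BL/6 background), in which the receptor on most T cells is fixed by the transgene, were primed on plates coated with antibodies to CD3 and CD28 in a medium that favours Th1 cells. After 48 h the cells left the plates and were expanded for 2 days, and RNA was then taken from these resting cells or from activated cells, restimulated with the same antibodies for 4 h. In each state the cells had been primed with DMSO (the solvent), Control-768, 0.25 µM I-BET-762 or 0.5 µM I-BET-762, with 3 arrays in each of the 8 groups and 24 in all. Whether the compound was still present during expansion and restimulation is not stated here. I-BET-762 blocks the acetyl-lysine pockets of BET bromodomain proteins, and Control-768 was used as a control compound at a concentration not given in the sources used here. All groups share the receptor transgene and the Th1 priming, so "resting" cells here had already been activated once and were not naive. The labels call the arrays biological replicates, but nothing says whether they came from separate mice, so the p-values measure the spread between these samples.

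T cells that are activated take up more glucose and convert much of it to lactate even when oxygen is plentiful. Hexokinases trap glucose in the cell as glucose 6-phosphate, phosphofructokinase commits it to glycolysis, and lactate dehydrogenase and the monocarboxylate transporters dispose of the product. A side branch, the pentose phosphate pathway, supplies NADPH and ribose for nucleotides. The transcription factors MYC and HIF-1 both raise many of these genes. HIF-1 also induces PDK1, which switches off pyruvate dehydrogenase, and the prolyl hydroxylases EGLN1 and EGLN3, which mark HIF-1 alpha for destruction and so close a feedback loop.

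Values are intensities on a linear scale without units. Array medians lay between 37.4 and 44.4, and the correlation of replicate arrays was 0.976 to 0.994. The tested quantity was log2(intensity + 16), so the changes of dim genes are understated. A member was called changed at an adjusted p under 0.05 in limma, adjusted over all 18193 genes. All 13 measured T cell markers, Cd4 and Cd3e among them, were at 64 or more on every array. The 6 measured B cell markers were under 64 throughout, summing to between 87.5 and 138 per array in the Control-768 groups, and 9 of the 10 myeloid and dendritic markers were under 64 on all arrays, with Csf1r at 75.5 to 158. Of the CD8 genes, Cd8b1 read 320 to 859 and Cd8a 51.0 to 124. Of 5 measured NK cell markers, Nkg7, which cytotoxic and Th1 cells also express, read 1489.8 to 8172 and was at 64 or more on all 24 arrays, Klra8 was so on 1 array and the other 3 on 0. The 4 red cell and platelet markers were under 64 on all arrays.

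The start regions of members that carry the results below are shown here with the core letters of the sites that HIF-1 and MYC are known to bind. Sequences are the 250 bases before the RefSeq start in the GRCm38.p6 build, written 5′ to 3′ along the gene. Capitals mark ACGTG or GCGTG on either strand (CACGT and CACGC when read from the other strand), and CACGTG, the E-box, where it occurs, contains ACGTG. Hk2 is shown as the member that rose most on restimulation, Bnip3, Pdk1 and Egln1 as hypoxia-linked members that fell, and Aldoc as the member that was lower with I-BET-762 once replicate numbers were taken into account within each state.

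Hk2: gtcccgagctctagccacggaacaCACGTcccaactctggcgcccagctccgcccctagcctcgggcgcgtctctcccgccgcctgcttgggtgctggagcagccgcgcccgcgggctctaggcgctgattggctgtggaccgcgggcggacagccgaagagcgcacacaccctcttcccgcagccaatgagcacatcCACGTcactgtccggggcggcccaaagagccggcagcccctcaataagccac
Bnip3: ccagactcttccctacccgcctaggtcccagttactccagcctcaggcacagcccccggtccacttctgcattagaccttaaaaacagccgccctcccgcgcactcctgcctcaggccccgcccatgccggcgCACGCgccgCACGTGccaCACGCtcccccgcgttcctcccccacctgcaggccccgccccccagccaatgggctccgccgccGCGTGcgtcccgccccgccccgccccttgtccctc
Pdk1: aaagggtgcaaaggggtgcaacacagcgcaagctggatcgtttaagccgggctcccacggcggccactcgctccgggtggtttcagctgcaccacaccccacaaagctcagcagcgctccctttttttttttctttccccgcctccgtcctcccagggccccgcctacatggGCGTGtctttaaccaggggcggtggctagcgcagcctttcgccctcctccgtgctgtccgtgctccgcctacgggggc
Egln1: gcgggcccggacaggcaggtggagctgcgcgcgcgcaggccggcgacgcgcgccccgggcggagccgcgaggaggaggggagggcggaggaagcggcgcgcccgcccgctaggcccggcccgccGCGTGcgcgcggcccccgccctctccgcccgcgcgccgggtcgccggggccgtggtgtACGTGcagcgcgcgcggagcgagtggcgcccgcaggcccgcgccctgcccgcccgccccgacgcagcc
Aldoc: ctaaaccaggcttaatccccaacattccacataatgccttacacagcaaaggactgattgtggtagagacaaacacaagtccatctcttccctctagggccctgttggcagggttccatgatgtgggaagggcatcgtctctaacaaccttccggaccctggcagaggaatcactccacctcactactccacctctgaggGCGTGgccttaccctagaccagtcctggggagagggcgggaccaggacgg

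These windows lie at chr6:82774455-82774704, minus strand (Hk2), chr7:138909507-138909756, minus strand (Bnip3), chr2:71872974-71873223, plus strand (Pdk1), chr8:124949255-124949504, minus strand (Egln1) and chr11:78322823-78323072, plus strand (Aldoc). Pdk1 and Aldoc have a second annotated start, which is not printed. The window before it held 0 matches for Pdk1 and 1 for Aldoc. The Bnip3 window held 5 matches, with first bases between 117 and 35 bases before the start, and the matches at 108 and 107 overlap in a single CACGTG. Hk2 held 2, at 226 and 52 bases before the start, and Egln1 held 2, at 126 and 68. The printed windows of Pdk1 and Aldoc held 1 each, at 78 and 50. RefSeq entries were found for 33 of the 34 listed members, with 47 windows between them because some have several starts. ACGTG or GCGTG occurred in 38 of the 47 windows and in 30 of the 33 members. The same letters occurred in 38.6% of all 32851 windows, ACGTG in 16.6%, GCGTG in 28.2% and CACGTG in 6.02%. These are shares of windows, to be set beside the 38 of 47, and no share per gene was computed. Tpi1, Eno2 and Gpi1 had neither core motif in these bases. The matches describe letters only, and they occur in members that rose, that fell and that did not pass the test.

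Restimulation for 4 h raised 2 members and lowered more of them. In Control-768 cells the glucose-trapping enzyme Hk2 and the lactate carrier Slc16a1 rose. The genes that fell included a glucose transporter, the pyruvate dehydrogenase kinases Pdk1 and Pdk3, some phosphofructokinase subunits and hypoxia genes. In all, 14 of 31 members were called, 2 higher and 12 lower, where 20.0% of all genes were called, 8.86% higher and 11.2% lower. The median change of the members was -0.37 on the log2 scale and that of all genes -0.03. Most members were bright, while 28.8 to 30.8% of all probe sets read under 16 on each array. The shares and medians over all genes, here and below, were not matched for brightness. Because these are bulk samples, fewer cells of a kind and less RNA per cell cannot be told apart.

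The same comparison was made within each of the other compounds. With DMSO, 2 members rose and 13 fell (background 20.8% called, 9.10% higher and 11.7% lower). Under 0.25 µM I-BET-762, 2 rose and 6 fell (14.4% called, 7.05% higher and 7.39% lower), and under 0.5 µM, 2 rose and 13 fell (23.2% called, 10.5% higher and 12.7% lower). Hk2 and Slc16a1 rose, and Slc2a3, Hk1, Taldo1, Pdk1 and P4ha1 fell, in all 4 comparisons. These use separate arrays but share an estimate of the spread, and arrays of the same replicate number deviated together within a state. The 4 comparisons are thus not independent repeats. A further 9 members were called in 1 to 3 of the 4 comparisons, and 15 in none. The shares of all genes called in all 4, in 1 to 3 or in none are not given here. The members' medians were -0.34 with DMSO, -0.30 with 0.25 µM and -0.44 with 0.5 µM I-BET-762, where all genes had -0.03, -0.02 and -0.03. Leaving out the activated array numbered 3 lowered the counts to 6 with DMSO, 3 with 0.25 µM and 9 with 0.5 µM. Without the resting array numbered 1 or 2 the DMSO count was 7 or 8, and without the resting or activated array numbered 1 the 0.25 µM count was 4 or 5. Shares of all genes called without these arrays are not given. A general loss of calls with fewer arrays therefore cannot be told apart from one in the members.

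**Figure D1:**
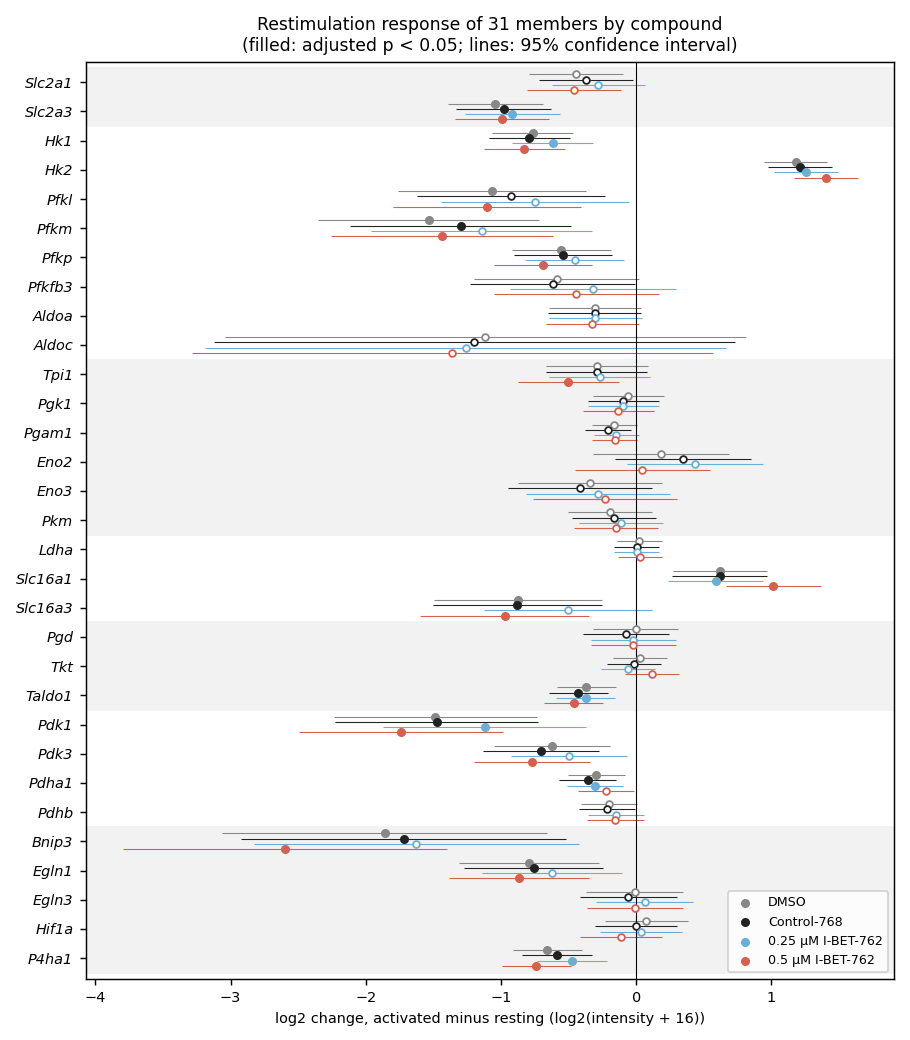
Log2 change of each of the 31 members from resting to activated cells, ordered by role from glucose transport at the top to hypoxia genes at the bottom, with a point for each of the 4 compounds (filled where the adjusted p was under 0.05) and lines for the 95% confidence interval. Hk2 and Slc16a1 lie to the right under each compound, while Bnip3, Pdk1, Slc2a3, Hk1 and P4ha1 lie to the left and Ldha, Tkt and Hif1a sit near 0.

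Among the glucose transporters, Slc2a3 (GLUT3, a high-affinity transporter) read 8901, 9499 and 8565 on the resting Control-768 arrays and 4792, 4839.9 and 4039 on the activated ones. The groups did not overlap, and it fell 1.97-fold (log2 change -0.98 ± 0.17 SE, adjusted p 0.000424). Every resting array of the other 3 compounds, at 8538 to 10088, was above every activated one, at 3537 to 6079.7. Slc2a1 (GLUT1, the carrier that rises when naive T cells are first activated) read 5182, 5681 and 6156 resting and 4099.6, 4858 and 4193 activated. These groups did not overlap either, but the log2 change of -0.37 ± 0.17 did not pass the test (adjusted p 0.132).

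Of the 8 genes of glucose trapping and upper glycolysis, 1 rose and 3 fell under Control-768, and the hexokinases went opposite ways. Hk2, the inducible hexokinase, read 3245, 3344 and 2837 in resting Control-768 cells and 7593, 7145 and 7083 in activated ones, and rose 2.31-fold (log2 1.21 ± 0.11, adjusted p 1.06e-06). With DMSO the arrays gave 3326, 3351 and 2779 resting and 7232, 7004 and 7159 activated, a log2 change of 1.18 ± 0.11. Cells grown with 0.5 µM I-BET-762 went from 2776, 2959.8 and 3567 to 8637, 7452 and 8512, a change of 1.40 ± 0.11, and those with 0.25 µM from 3179, 3078 and 2779 to 7763, 6959 and 6911, a change of 1.26 ± 0.11. All 12 activated arrays were thus far above all 12 resting ones. Hk1, the widely expressed housekeeping hexokinase, instead fell 1.73-fold, from 4152, 4079 and 3365 to 2202, 2465 and 2001 (log2 -0.79 ± 0.14, adjusted p 0.000662).

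Phosphofructokinase is built from muscle, liver and platelet subunits, and each of their genes read lower after restimulation. Pfkp, the platelet-type subunit, went from 7014, 6739 and 5245 to 4796, 4478 and 3722 (log2 -0.54 ± 0.17, adjusted p 0.0324). Pfkm, the muscle-type subunit, read 360.0, 325 and 111 in resting and 117, 100.03 and 55.1 in activated Control-768 cells (log2 -1.30 ± 0.39, adjusted p 0.023). It is dim, and its lowest resting array lay below its highest activated array. Pfkl, the liver-type subunit, had 794 ± 186 resting and 424 ± 158 activated (mean ± SD, n = 3), a log2 change of -0.93 ± 0.33 with an adjusted p of 0.0553, and it was called with DMSO (-1.07 ± 0.33, adjusted p 0.0268) and 0.5 µM I-BET-762 (-1.10 ± 0.33, adjusted p 0.0198). Pfkfb3, which makes the allosteric activator of phosphofructokinase, had a log2 difference of -0.62 ± 0.29 that did not pass the test (adjusted p 0.158).

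Aldolases split fructose 1,6-bisphosphate. Aldoa, the main form in muscle and blood cells, had a log2 change of -0.31 ± 0.16 (adjusted p 0.219). Aldoc, best known from brain, read 2532, 2813 and 795 in resting and 1459.8, 1525 and 197 in activated Control-768 cells. The array numbered 3 was far below the others in both states, the groups overlapped, and the log2 change of -1.20 ± 0.92 did not pass the test (adjusted p 0.423). Between arrays of the same number, Aldoc was lower in activated cells in 12 of 12 differences over the 4 compounds. This does not set Aldoc apart, because 21 members were lower in 12 of 12. Among them were Aldoa, Pgk1, Pgam1 and Pdhb, which were called under no compound. The share of all genes lower in 12 of 12 is not given. Arrays of the same number deviated together within a state, so the 12 differences are not independent. With the number as a replicate block over all arrays, the Aldoc change passed in limma under each compound. The adjusted p was 0.00698 under Control-768 and 0.0108, 0.00677 and 0.00235 with DMSO, 0.25 µM and 0.5 µM I-BET-762. However, arrays of the same number did not deviate together in every pair across states.

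None of the 6 measured genes of lower glycolysis was called in the Control-768, DMSO or 0.25 µM comparisons. Pgk1, which makes the first ATP of this stretch, had a log2 change of -0.09 ± 0.13 and Pkm, pyruvate kinase, one of -0.17 ± 0.15. The triose phosphate isomerase Tpi1 read 10088, 10655 and 10773 resting and 8990.2, 9078 and 4986 activated with 0.5 µM I-BET-762, where it was called (log2 -0.50 ± 0.18, adjusted p 0.0491). Without the activated array numbered 3 of that compound its adjusted p was 0.366. Pgam1 (phosphoglycerate mutase, -0.21 ± 0.08) and the muscle and neuronal enolases Eno3 (-0.42 ± 0.26) and Eno2 (0.35 ± 0.24) did not pass the test under Control-768, with adjusted p of 0.0774, 0.293 and 0.368. Eno2 was dim, at 58.3 to 141 over all 24 arrays. Pgk1 lay between percentiles 99.1 and 99.7 of all probe sets and Pgam1 between 98.7 and 99.2. Both were thus near the top of the intensity scale, where differences can be compressed.

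Of the 3 lactate genes, 1 rose, 1 fell and 1 was not called. Ldha, the lactate dehydrogenase subunit that favours lactate, read 14063, 13755 and 13317 resting and 14265, 13818 and 13141 activated under Control-768, and the 95% interval of its log2 change ran from -0.16 to 0.17. It lay between percentiles 99.5 and 99.7 of all probe sets on every array, near the top of the intensity scale, where differences can be compressed. Slc16a1, the carrier MCT1, read 3956, 3994 and 3562 resting and 5719.6, 5596 and 6358 activated under Control-768, and rose 1.53-fold (log2 0.62 ± 0.17, adjusted p 0.0125). With 0.5 µM I-BET-762 it went from 3468, 3719 and 2149 to 5720.3, 5432 and 7424 (log2 1.01 ± 0.17), where the resting array numbered 3 was the lowest of all 24 and the activated array of that number the highest. Slc16a3, the export carrier MCT4 and a hypoxia target, read 137, 101 and 123 and then 64.7, 70.6 and 41.0 (log2 -0.88 ± 0.30, adjusted p 0.0427), at 64 or more on 16 of the 24 arrays.

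In the pentose phosphate pathway the non-oxidative enzyme transaldolase, Taldo1, fell in each compound group. It read 2620.5, 2541 and 2655 resting and 2085, 1788 and 1928 activated under Control-768 (log2 -0.43 ± 0.10, adjusted p 0.00614), with no overlap. Transketolase, Tkt, which works beside it, had a 95% interval from -0.22 to 0.18, and Pgd, the NADPH-forming 6-phosphogluconate dehydrogenase, one from -0.39 to 0.24. Tkt lay between percentiles 99.1 and 99.4 of all probe sets, where differences can be compressed.

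Of the 4 genes that set the entry of pyruvate carbon into the citric acid cycle, 3 fell under Control-768. Pdk1, a kinase that turns pyruvate dehydrogenase off, read 3876, 4370.3 and 2084 in resting and 1196, 1537 and 868 in activated Control-768 cells, 2.78-fold lower (log2 -1.48 ± 0.36, adjusted p 0.00625). With DMSO it went from 4089, 3877 and 2371 to 1218, 1532 and 891, with 0.25 µM I-BET-762 from 2827, 3554 and 1925 to 1153, 1695 and 941, and with 0.5 µM from 2752, 3005 and 3959 to 1222, 1338 and 517. In each compound group every resting array was above every activated one. Pdk3, a related kinase, read 1074, 1082 and 1021 and then 725, 662 and 559 (log2 -0.70 ± 0.21, adjusted p 0.0195). The enzyme's own alpha subunit gene, Pdha1, fell as well, from 3064, 2977 and 2594 to 2089, 2441 and 2190.0 (log2 -0.36 ± 0.10, adjusted p 0.0147), and the beta subunit gene Pdhb had a log2 difference of -0.21 ± 0.10 (adjusted p 0.149).

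Of the 5 hypoxia genes, 3 fell under Control-768. Bnip3, a mitochondrial protein that promotes mitophagy, read 5684, 5919 and 4684 resting and 2068, 2389 and 869 activated (log2 -1.72 ± 0.58, adjusted p 0.0395). Its 0.5 µM I-BET-762 arrays read 3998, 4302 and 6682 resting and 1467, 1760.1 and 183 activated, with the array numbered 3 the highest of the resting and by far the lowest of the activated cells. DMSO gave 5635, 5871 and 5167 and then 1755, 2244 and 882, and 0.25 µM I-BET-762 4539.5, 5001 and 4420.3 and then 1592, 2257 and 926. In each compound group its resting and activated arrays stood apart.

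Egln1, the main oxygen-sensing prolyl hydroxylase, went from 3406, 3409 and 2955 to 2369, 2091 and 1413 (log2 -0.76 ± 0.25, adjusted p 0.0349). P4ha1, a collagen prolyl hydroxylase induced by HIF-1, went from 3399, 3491 and 3477 to 2329, 2375 and 2185 (log2 -0.59 ± 0.12, adjusted p 0.00209). Neither overlapped between the states. Egln3, a hydroxylase strongly induced by HIF-1 elsewhere, overlapped, with a 95% interval from -0.42 to 0.30. Hif1a itself read 8338, 8108 and 8342 and then 8089, 9620.2 and 7245, and its interval ran from -0.31 to 0.30. The RNA level says nothing of the HIF-1 alpha protein, which is controlled mainly by degradation.

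**Figure D2:**
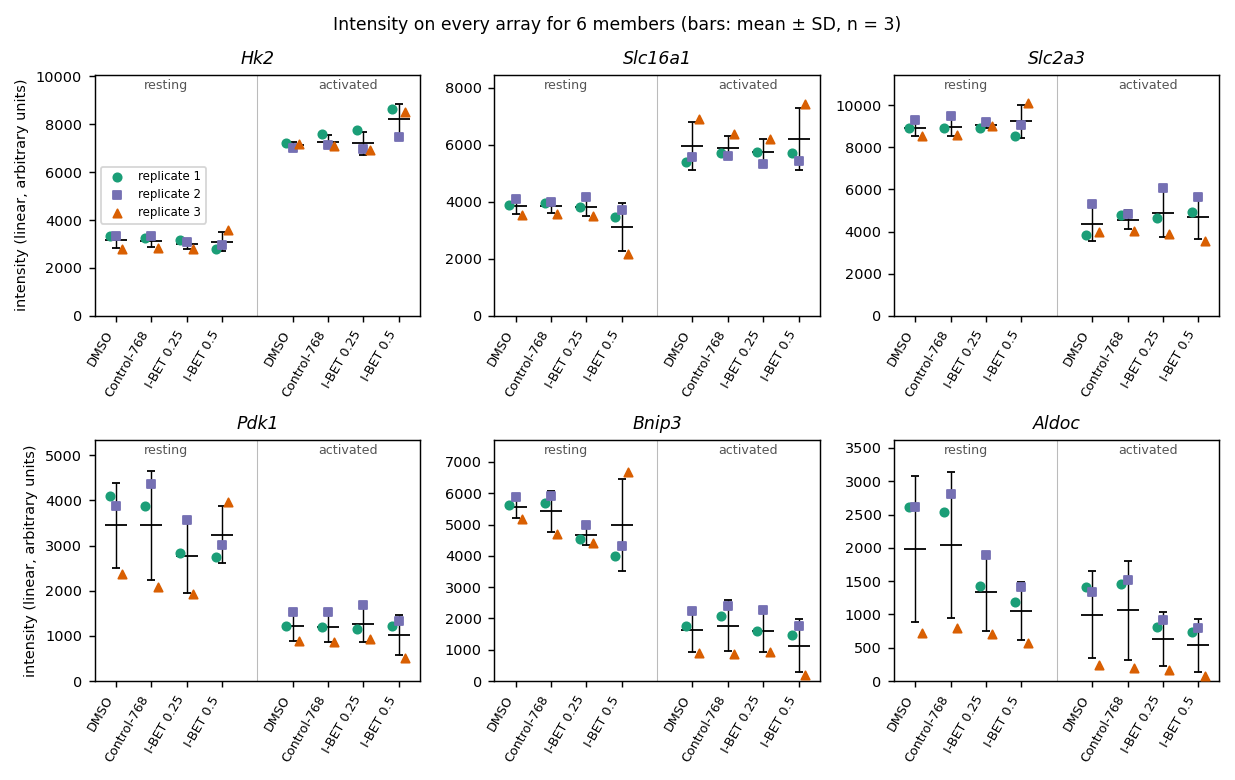
Linear intensity on every array for Hk2, Slc16a1, Slc2a3, Pdk1, Bnip3 and Aldoc, by state and compound, with a symbol for each replicate number and bars for the mean ± SD (n = 3). Hk2 and Slc16a1 are higher and Slc2a3, Pdk1 and Bnip3 lower in activated cells, while the arrays numbered 3 (triangles) lie below the other 2 for Aldoc in all 8 groups.

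The proliferation markers moved with state as well: under Control-768, 6 of 15 fell and 0 rose, and their summed level was 69132 to 70811 in resting and 53100 to 60253 in activated cells, with no marker at 0. Over all genes, 11.2% were called lower and 8.86% higher. The part of the proliferation markers in the members' changes was not tested. Of the 14 calls under Control-768, 6 (Slc2a3, Hk1, Hk2, Taldo1, Pdk1 and P4ha1) passed under every alternative tried, including each array left out in turn. With DMSO 5 of 15 calls did so (the same genes without Taldo1), and with 0.25 µM and 0.5 µM I-BET-762 3 of 8 and 3 of 15 (Slc2a3, Hk1 and Hk2 each time). Slc16a1, Taldo1, Pdk1 and P4ha1, called in all 4 comparisons, thus each lost the call in some of them under an alternative. Under Control-768, the other 8 were lost when some arrays were left out: Slc16a1 for 1 of 6 arrays (adjusted p 0.059), Pfkm for 3 of 6 arrays (adjusted p 0.102 to 0.127), Pdk3 for 3 of 6 arrays (adjusted p 0.0547 to 0.0951), Pfkp for 4 of 6 arrays (adjusted p 0.0589 to 0.153), Pdha1 for 4 of 6 arrays (adjusted p 0.0548 to 0.0713), Bnip3 for 5 of 6 arrays (adjusted p 0.0553 to 0.202), Egln1 for 5 of 6 arrays (adjusted p 0.0506 to 0.198) and Slc16a3 for 6 of 6 arrays (adjusted p 0.0504 to 0.189). The activated array numbered 3 was among these arrays for all 8, and the resting arrays numbered 1 and 2 for all but Slc16a1. The activated array 1 was among them for Pdha1, Bnip3 and Slc16a3, the activated array 2 for Pfkp, Egln1 and Slc16a3, and the resting array 3 for Bnip3, Egln1 and Slc16a3. Other settings ended some of these 8 calls too. The mean of all probe sets in place of the brightest gave Pfkp -0.17 (adjusted p 0.694; -0.12 and 0.799 with DMSO) and Slc16a1 0.47 (adjusted p 0.0977). An added constant of 1 ended the calls of Slc16a3 (adjusted p 0.0675) and Bnip3 (0.0574), and fitting only the compared groups ended those of Pfkm (0.0988), Pfkp (0.0664) and Pdha1 (0.0975). Without the arrays numbered 3 of all groups Slc16a3 was not called (0.056).

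Without the activated array 3, 6 members were called under Control-768. Leaving out the resting array numbered 1 or 2 left 7 each. These counts too have no share of all genes beside them. The activated arrays numbered 3 also had the 4 largest log2 differences between the 3′ and 5′ Gapdh control probe sets, a sign of RNA quality, at 0.15 with DMSO, 0.28 with Control-768, 0.29 with 0.25 µM and 0.31 with 0.5 µM I-BET-762, while the other 20 arrays lay at 0.10 or lower. Their part in the falls on restimulation was not tested.

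Other genes of these pathways were read from lists beside the members. Over all genes, 8.86% were called higher and 11.2% lower in the Control-768 comparison used here. Of 19 other genes of glucose transport and glycolysis, 2 rose and 6 fell under Control-768, with a median of -0.26. Those with the smallest adjusted p were the phosphoglucomutase gene Pgm2 (-0.80 ± 0.12, adjusted p 0.000153), the intracellular glucose transporter gene Slc2a8 (-1.73 ± 0.29, adjusted p 0.000393) and Tigar (2.15 ± 0.50, adjusted p 0.00436), a phosphatase that restrains glycolysis and steers sugar to the pentose phosphate pathway. Of 20 other hypoxia genes, 8 fell and 0 rose, with a median of -0.67. They included the histone demethylase genes Kdm3a (-1.16 ± 0.24, adjusted p 0.00214) and Kdm4b (-1.22 ± 0.29, adjusted p 0.00524) and the oxidoreductase gene Ero1a (-0.99 ± 0.21, adjusted p 0.00217), which are known HIF-1 targets or hypoxia responsive. In the pentose phosphate list (median -0.22) 2 of 9 fell, the phosphoribosyl pyrophosphate synthetase gene Prps2 (-0.72 ± 0.12, adjusted p 0.00043) and Rpe (-0.34 ± 0.12, adjusted p 0.049). Of 13 genes of pyruvate and lactate handling 1 fell, the malic enzyme gene Me2 (-0.79 ± 0.22, adjusted p 0.0127).

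Among 21 regulators (median 0.12) 1 rose and 1 fell, where 8.86% of all genes were called higher and 11.2% lower. Txnip, which limits glucose uptake, changed by -1.36 ± 0.40, adjusted p 0.0193. Rheb, an activator of mTORC1, changed by 0.31 ± 0.11, adjusted p 0.0419. Myc had a log2 change of 1.04 ± 0.63, adjusted p 0.284, and Arnt, the partner of HIF-1 alpha, one of -0.40 ± 0.15, adjusted p 0.0711, and neither passed the test. Myc read 4670 ± 2154 in resting and 8757 ± 282 in activated Control-768 cells (mean ± SD, n = 3), so its resting arrays varied widely.

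No member passed the test for I-BET-762 against its controls, and Aldoc was the 1 member that passed with the replicate number as a block within each state. With the number as a block over all arrays Aldoc did not pass either (pooled adjusted p in limma 0.134 in resting and 0.059 in activated cells). In resting cells 0 of 31 members were called against Control-768 at 0.25 µM (0.0660% of all genes called) and 0 at 0.5 µM (1.41%). In activated cells there were 0 at 0.25 µM (0.0715%) and 0 at 0.5 µM (0.726%). With both concentrations set against both controls, 0 were called in resting cells (1.85%) and 0 in activated cells (1.20%), with member medians of -0.06 and -0.03 on the log2 scale, beside -0.01 and 8.56e-05 over all genes. No member had an unadjusted p under 0.05 in limma in any of these 6 comparisons.

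A limit on what the fit without a replicate block could miss comes from its intervals. The fit with the block within each state called more genes in the pooled comparisons. It called 5.67% of all genes in resting and 4.15% in activated cells, against 1.85% and 1.20% without the block. In the comparisons of both concentrations with both controls, without the block, the median 95% interval of a member reached 0.25 to either side on the log2 scale. For Hk2 it ran from -0.21 to 0.12 in resting and -0.07 to 0.26 in activated cells, and for Ldha from -0.15 to 0.08 and -0.15 to 0.08. For Pdk1 the intervals were wider, -0.71 to 0.35 and -0.66 to 0.41, and for Bnip3 -1.05 to 0.65 and -1.37 to 0.33, so differences of that size could not be seen without the block. Taldo1 had the smallest p of the members in resting cells (log2 0.15 ± 0.07, unadjusted p 0.0589, adjusted p 0.528) and Pdha1 in activated cells (0.13 ± 0.07, unadjusted p 0.0769, adjusted p 0.641).

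Arrays with the same replicate number deviated together within a state, so a fit with the number as a replicate block was also made there. With the block within each state, Aldoc was called and no other member was. Its resting arrays read 2619, 2609 and 716 with DMSO, 2532, 2813 and 795 with Control-768, 1427, 1886 and 710.4 with 0.25 µM and 1189.7, 1413 and 570.2 with 0.5 µM I-BET-762, in order of replicate number. In activated cells they read 1410.0, 1335 and 242 with DMSO, 1459.8, 1525 and 197 with Control-768, 811, 924 and 170.0 with 0.25 µM and 740.0, 792 and 81.4 with 0.5 µM. At each number and in both states, each I-BET-762 array was below the Control-768 array, and that at 0.5 µM was below that at 0.25 µM, while the groups as a whole overlapped, with the array numbered 3 lowest in each.

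With the replicate block, Aldoc was lower at 0.5 µM by a log2 difference of -0.84 ± 0.17 in resting cells (adjusted p 0.00585, 5.52% of genes called) and -1.01 ± 0.17 in activated cells (adjusted p 0.00224, 3.35%). The pooled differences were -0.65 ± 0.12 in resting cells (adjusted p 0.00296, 5.67%) and -0.80 ± 0.12 in activated cells (adjusted p 0.000656, 4.15%). At 0.25 µM the block gave -0.52 ± 0.17 (adjusted p 0.297, 0.533%) and -0.58 ± 0.17 (adjusted p 0.249, 0.390%), which did not pass. Without the block the differences at 0.5 µM had adjusted p of 0.85 and 0.897. Over all alternatives the adjusted p of the pooled difference ran from 0.000431 to 0.939 in resting and from 0.000656 to 1 in activated cells, with every value below 0. A second, dim Aldoc probe set had pooled differences of -0.70 and -0.48 without the block, and neither passed.

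**Figure D3:**
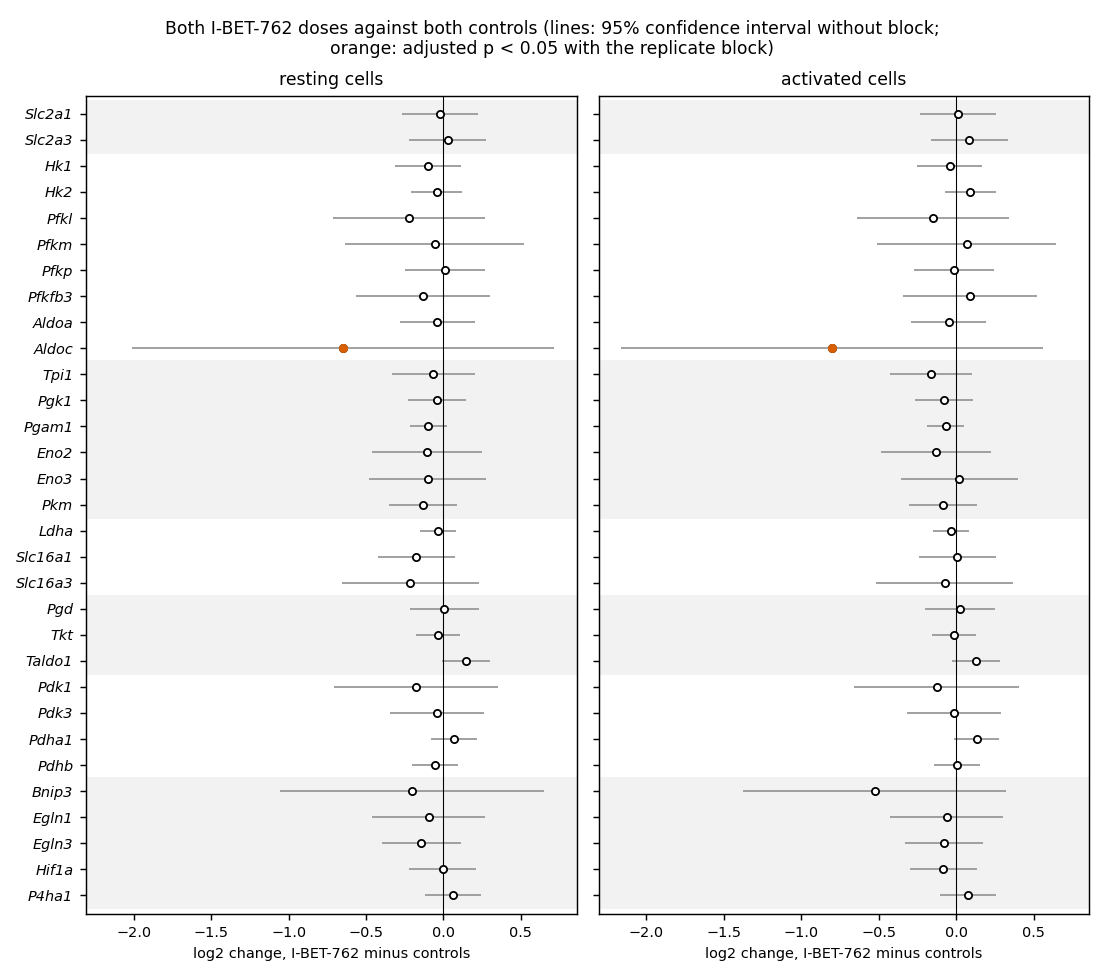
Log2 difference of each member between both I-BET-762 concentrations and both controls, in resting cells (left) and activated cells (right), with the 95% confidence interval of the fit without a block. All intervals cross 0, and Aldoc (orange) is the member with an adjusted p under 0.05 in the fit with the replicate block.

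The compounds gave 4 further comparisons within a state. Control-768 and DMSO, the control compound and the solvent, had 0 members called in resting and in activated cells, with 0% of all genes called in each state (428 and 300 genes at an unadjusted p under 0.05 in limma). The largest member difference was 0.17 in resting and 0.12 in activated cells in size, and the median 95% interval reached 0.35 to either side. Between 0.5 and 0.25 µM I-BET-762, 0 members were called in resting cells (0.0660% of all genes) and 0 in activated cells (0.0110%). P4ha1 and Eno3 had unadjusted p of 0.0187 and 0.0298 in resting cells, with log2 differences of 0.32 ± 0.12 and -0.60 ± 0.26, and Eno3 had 0.0455 in activated cells (-0.54 ± 0.26). The resting P4ha1 arrays read 3224, 3213 and 3330.4 at 0.25 µM and 3638, 3435 and 5329.9 at 0.5 µM, where the array numbered 3 stood above the rest.

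Whether I-BET-762 altered the restimulation response itself was tested as an interaction. It is given only for the fit without the replicate block within each state. No member passed, with 0% of all genes called and 699 genes at an unadjusted p under 0.05 in limma, none of them a member. For Hk2 the response differed by 0.13 ± 0.11 (95% interval -0.10 to 0.37) and for Slc16a1 by 0.18 ± 0.17 (-0.17 to 0.53). For Bnip3 the interval was wide, from -1.52 to 0.88. The counts of members called on restimulation, which differ between compounds, are therefore not shown to differ in response.

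In the lists beside the members, Stc2 was lower with I-BET-762 in both states, at -0.70 ± 0.18, adjusted p 0.0483 in resting and -0.79 ± 0.18, adjusted p 0.0309 in activated cells. Stc2 encodes a stanniocalcin, a secreted glycoprotein induced by hypoxia and by stress of the endoplasmic reticulum. It was 1 of 20 other hypoxia genes called in each state, where 1.85% of all genes were called in resting and 1.20% in activated cells. Among the regulators Mycn, a MYC family gene, had -2.52 ± 0.27, adjusted p 1.69e-05 in resting and -2.47 ± 0.27, adjusted p 2.44e-05 in activated cells, and Epas1, which encodes HIF-2 alpha, had -1.20 ± 0.25, adjusted p 0.0167 in activated cells. Epas1 was dim, with a mean of 141.6 and an SD of 64.2 on the activated Control-768 arrays. Myc differed by -0.51 ± 0.44, adjusted p 0.821 in resting cells, where the fit with the replicate block gave an adjusted p of 0.0432, and by 0.01 ± 0.44, adjusted p 1 in activated cells. No gene of the other glycolysis, pentose phosphate or pyruvate lists was called in either state without the block.

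Several members read differently on the arrays numbered 3 than on the other arrays of the same group. Aldoc was lower on them in 8 of 8 groups, with a median log2 difference of -2.05 from the mean of arrays 1 and 2, and Pfkm in 8 of 8 with a median of -0.82. Pgd, Aldoa, Pkm, Pgk1 and Pdha1 were also lower in 8 of 8, by medians of -0.24 to -0.09. Pfkfb3 was higher in 8 of 8, with a median of 0.52. Across all genes the medians of these differences lay between -0.07 and 0.01 in the 8 groups. The share of all genes with the same sign in 8 of 8 groups is not given. Arrays of the same number deviated together within a state, so the 8 groups are not independent.

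In activated cells Bnip3 was lower on the array numbered 3 with every compound, by log2 differences of -1.16 with DMSO, -1.34 with Control-768, -1.02 with 0.25 µM and -3.03 with 0.5 µM I-BET-762. Egln1 was lower there too, by -0.66, -0.65, -0.50 and -0.26 in that order. For resting cells with 0.5 µM I-BET-762, Egln1 read 2532, 2622 and 5529 and Pfkfb3 543, 671 and 1526, and Slc2a1 4537, 5046 and 8327, each highest on array 3. For activated cells with 0.5 µM, Pdk1 was lowest on array 3 as well, at 1222, 1338 and 517. That array also had the lowest proliferation markers, at a mean log2 level of 10.36 against 11.18 and 11.25 on arrays 1 and 2, and the 3′ to 5′ Gapdh difference of 0.31 given above. The part of these in the members' values was not tested.

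Without the arrays numbered 3 of all groups, a choice made after seeing the data, Aldoc was lower in resting cells at 0.5 µM I-BET-762 (log2 -1.03, adjusted p 0.00146), as were Egln3 (-0.53, adjusted p 0.0171) and Egln1 (-0.40, adjusted p 0.0275). Egln1 had 0.03 with all arrays, so its direction turned. In the pooled resting comparison Pfkfb3 (-0.30), Aldoc (-0.85), Egln1 (-0.34) and Egln3 (-0.35) were called. The activated cells then had Aldoc called at 0.25 µM (-0.77, adjusted p 0.0491) and 0.5 µM (-0.95, adjusted p 0.00363). On restimulation under Control-768, Aldoc (-0.83, adjusted p 0.000972) and Pfkfb3 (-0.52, adjusted p 0.0033) were then lower as well. No share of all genes called without these arrays is given beside these calls.

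**Figure D4:**
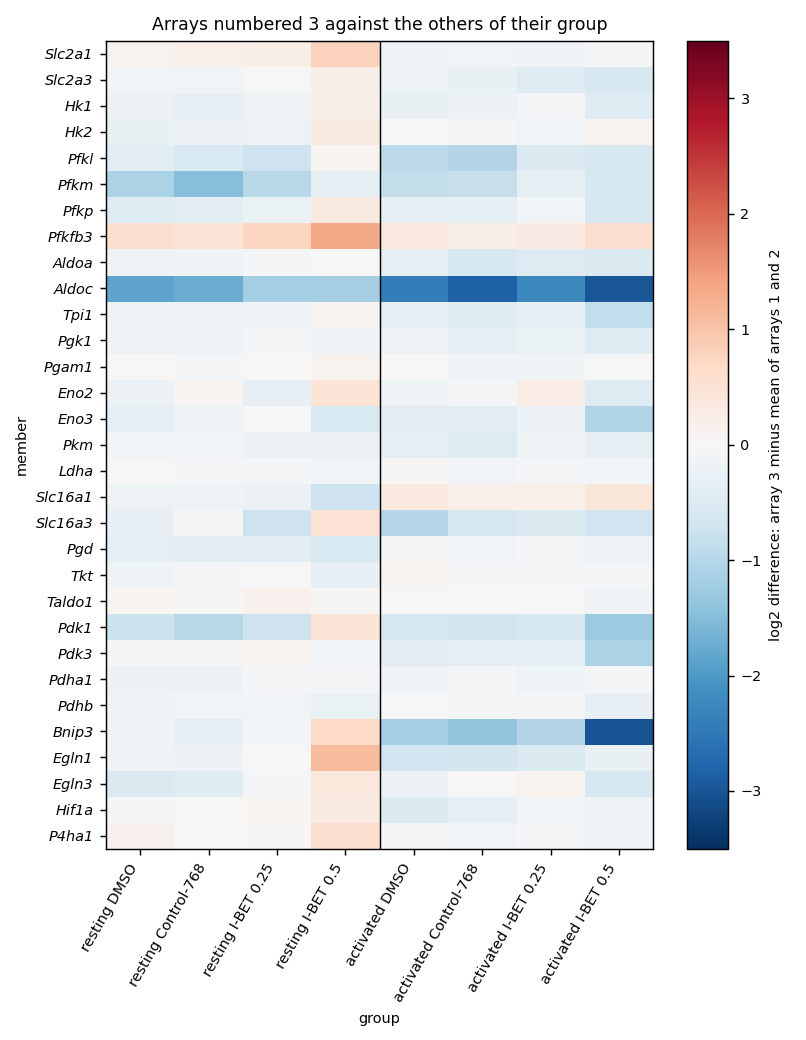
Log2 difference between the array numbered 3 and the mean of arrays 1 and 2 for each member (rows) in each of the 8 groups (columns), blue for lower and red for higher. Aldoc is lower in 8 of 8 groups and Pfkfb3 higher in 8 of 8, while Bnip3 and Egln1 are higher on array 3 in resting cells with 0.5 µM I-BET-762 and lower on it in activated cells with each compound.

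More than 1 probe set was available for 20 of the 31 members. Of 13 other probe sets of the members called under Control-768 restimulation, 12 had the same sign, 7 of them with an adjusted p under 0.05 over all probe sets, and 1 had the opposite sign without passing, a dim Pfkp probe set with a log2 change of 0.38. For Slc2a3 the second brightest probe set fell by 1.11 on the log2 scale, and for Pdk1 by 1.67. Bnip3 and Hk2 rest on 1 probe set each.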

How the data were processed

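The authors deposited 1 linear intensity per probe set (45101 on an Affymetrix mouse array) for 24 arrays. The sources used here do not give the authors' summary or normalisation of these intensities. Per the labels' protocols, the RNA went through 2 rounds of amplification before biotin labelling.

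Intensities were transformed as log2(intensity + 16). Each gene was read from its brightest probe set with a single symbol in the platform's table (highest mean log2 value over 24 arrays). A mean for each of 8 groups was fitted over all 24 arrays with limma 3.58.1 (R 4.3.3, 16 residual and 3.59 prior degrees of freedom), giving 15 two-sided comparisons with Benjamini-Hochberg adjustment over 18193 genes. The script was tested on simulated data.

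Same-numbered arrays correlated within a state (0.20 to 0.70 over 18 resting pairs, 0.15 to 0.56 over 18 activated pairs) but not in every pair across states (0.03 to 0.16 over 12 pairs, 8 over 0.1), so the number was taken to pair arrays within states only, and a block over all arrays was run as an alternative. The members and lists were chosen with earlier results of these data known. Other genes named are up to 3 called members of a list with the smallest adjusted p, and Myc, Arnt and Txnip whatever their values. The number of arrays limits the precision.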

Additional observations from a re-analysis of the deposited data

How the results depend on the processing

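The added constant (1 or 64), a filter on dim genes, quantile or median scaling, the mean of all probe sets, leaving out ambiguous probe sets, the samples in the fit, the replicate block and each array left out were tried. The alternatives without replicate 3 of several groups were chosen after seeing the data. No scaling moved the median of all genes by more than 0.1. For restimulation, leaving out 1 array in turn gave 6 to 12 called members with Control-768, 6 to 14 with DMSO, 3 to 7 with 0.25 µM and 9 to 15 with 0.5 µM I-BET-762, lowest each time without the activated array numbered 3. It gave 0 in every compound comparison. The replicate block over all arrays gave 13 members at 0.25 µM restimulation (8 without), and fitting only the compared groups gave 5 at 0.5 µM (15 with all groups), or 6 without replicate 3 of 0.5 µM in both states. The replicate block within each state gave 1 member, Aldoc, in resting and in activated cells at 0.5 µM, and 1 in each pooled comparison. Without replicate 3 of all groups there were 3 at 0.5 µM and 4 pooled in resting cells, and 1 each at 0.25 µM, 0.5 µM and pooled in activated cells, and 15, 16, 12 and 14 on restimulation with Control-768, DMSO, 0.25 µM and 0.5 µM. Egln1 in resting cells at 0.5 µM turned from 0.03 to -0.40 there. The cause was not tested. Of these alternatives, the share of all genes called is given above only for the replicate block within each state. For the others, a change in the count of members cannot be told apart from a general change in calling.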
